A study of Mus musculus with 23 samples.

Results

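The subject here is a contrast between 2 perturbations of mouse embryonic stem (ES) cells: the change in each transcript after induction of the microRNA let-7, minus its change after loss of Lin28a. It asks which genes respond to let-7 alone, to Lin28a loss alone, or to both. Of the 23 samples of the series, 12 entered it, 3 in each of 4 groups. The first pair was an ES line named ilet7, which carries a doxycycline-inducible let-7 cassette, after 3 days of doxycycline, and the same line without doxycycline. The second pair was Lin28a knockout (Lin28a-null) ES cells and wild-type ES cells derived from the inner cell mass. Levels are in TPM, transcript abundance corrected for transcript length and scaled to one fixed total per library. A gene was a member if its TPM averaged 1 or more across the 12 libraries, as held for 16085 of the 53715 genes in the table.

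The ES cells were grown on mouse embryonic fibroblast (MEF) feeders in medium with LIF and 2i, a pair of kinase inhibitors that holds cells in the naive state, and MEF were depleted before RNA was taken. Several things limit these groups as models. The labels do not say which let-7 the cassette holds, and no line without the cassette was given doxycycline, so an effect of the drug and an effect of let-7 cannot be told apart. The labels also do not say whether the sequenced Lin28a-null cells are an edited clone or a line from knockout mice. Nothing says that the 3 libraries of a group came from separate cultures, so the p-values measure only the spread between these libraries, which may be technical.

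LIN28A is an RNA-binding protein of early embryos and stem cells that binds the precursors of let-7 and blocks their maturation. Mature let-7 in turn pairs with sites in 3′ untranslated regions (UTRs), mostly through its seed, and lowers the level or translation of those mRNAs. The Lin28a mRNA is itself a known target, which makes a mutually repressive loop. LIN28A also has roles in RNA metabolism that do not pass through let-7, so the responses to both perturbations need not be the same.

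The let-7 family is shown first because all of its members share the seed that any induced let-7 would use. RefSeq (GRCm38.p6) gave 9 mature 5p sequences from 11 loci, and all 9 had the same bases at positions 2 to 8, in capitals below. Differences between members lie outside those bases.
let-7a: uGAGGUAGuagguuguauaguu
let-7b: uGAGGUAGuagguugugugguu
let-7d: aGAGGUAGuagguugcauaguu
let-7g: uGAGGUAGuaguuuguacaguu
miR-98: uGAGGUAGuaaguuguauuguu

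The complements of this seed that were searched on the sense strand of 3′ UTRs were CTACCTCA (an 8mer), CTACCTC (7mer-m8) and TACCTCA (7mer-A1), and a 7mer inside an 8mer was counted only as the 8mer. Of the 13090 tested genes with a 3′ UTR in GENCODE M21, 16.4% held any of the 3 and 3.64% held an 8mer. A match is a description of the letters and not a shown binding site. The 8mers of 3 genes on which the results turn are printed below, each with its 7 neighbouring bases on either side and its position in the UTR, the match in capitals.
Lin28a, position 909: tgttgaaCTACCTCAtttttgc
Lin28a, position 1547: cacaaacCTACCTCActgtgtt
Nr6a1, position 371: aagacaaCTACCTCAatggaaa
Nr6a1, position 1228: cattaaaCTACCTCAtgtttct
Nr6a1, position 4135: catgaacCTACCTCAggctacc
Trim6, position 541: tatagatCTACCTCAcagtgcc
Trim6, position 586: tatagctCTACCTCAcagcacc
Trim6, position 631: tatagatCTACCTCAcagtgcc
Trim6, position 676: tatagatCTACCTCAcagcgcc
Trim6, position 721: tatagctCTACCTCAcagcgcc
In mm10 (GRCm38) coordinates the Lin28a windows lie at chr4:134005182-134005203 and chr4:134004544-134004565 on the minus strand. Those of Nr6a1 lie at chr2:38727442-38727463, chr2:38726585-38726606 and chr2:38723678-38723699, also on the minus strand. The first and last Trim6 windows lie at chr7:104233466-104233487 and chr7:104233646-104233667 on the plus strand, and its 5 8mers fall in 5 similar stretches of the same UTR.

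Lin28a (chr4:134003330-134018841, minus strand), the gene removed in one pair and a let-7 target in the other, was lower in both comparisons. It had 7.33, 6.26 and 6.94 TPM in doxycycline-treated ilet7 cells, against 24.9, 20.4 and 23.7 TPM in control ilet7 cells. In Lin28a-null cells it had 14.6, 20.96 and 15.8 TPM, against 31.5, 61.2 and 32.1 TPM in wild-type cells. The groups did not overlap in either pair, and Lin28a-null cells kept Lin28a RNA at a level above that of doxycycline-treated ilet7 cells. The labels do not say which part of the gene is deleted, so this RNA says nothing about the protein. Throughout, an effect is a difference of group means on the log2(TPM + 1) scale, which understates changes of low transcripts. The let-7 effect on Lin28a was −1.61 (SE 0.22, limma adjusted p = 0.0014) and the Lin28a-loss effect −1.18 (SE 0.22, adjusted p = 0.0013). Their difference was −0.43 (SE 0.32, adjusted p = 0.346). Without wild-type replicate 2 the Lin28a-loss effect was −0.87 (adjusted p = 0.00070), still lower but no longer past a 2-fold change, and the gene then left the set called in both.

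The libraries were alike in breadth, with 15188 to 16349 genes at 1 TPM or more and correlations of 0.970 to 0.987 between replicates. TPM values keep no read depth, so depth is unknown and no counting interval is given. All 9 pluripotency markers were present in every group, with summed levels of 7496 to 7925 TPM in doxycycline-treated ilet7, 7253 to 7449 TPM in control ilet7, 6371 to 7025 TPM in Lin28a-null and 7639 to 7787 TPM in wild-type cells. Summed over 11 fibroblast markers, levels were 370.6 to 421.0 TPM in doxycycline-treated ilet7, 256.6 to 322.5 TPM in control ilet7, 2170 to 3065 TPM in Lin28a-null and 463.3 to 1373 TPM in wild-type cells. These markers were thus higher in Lin28a-null cells, and their part in the results was not tested. In bulk RNA, fewer cells of a type and less RNA per cell cannot be told apart. Wild-type replicate 2 stood apart from the other wild-type libraries: Zscan4c was at 0.344 TPM there against 9.03 and 11.5 TPM, Otx2 at 105 TPM against 36.9 and 35.6 TPM, and Lefty1 at 1.79 TPM against 15.8 and 13.2 TPM. It also held the most fibroblast marker RNA of the wild-type libraries, with Col1a1 at 388.0 TPM against 130.5 and 165.6 TPM. Leaving it out thus widens the fibroblast marker gap between Lin28a-null and wild-type cells.

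The lines also differed in ways that need not come from Lin28a. The Y-linked helicase gene Ddx3y had 15.3, 12.1 and 16.9 TPM in doxycycline-treated ilet7, 7.14, 11.0 and 9.31 TPM in control ilet7 and 10.9, 10.4 and 13.2 TPM in Lin28a-null cells, but 0.040, 0.237 and 0.309 TPM in wild-type cells. Beyond it, 9 genes were under 1 TPM in wild-type cells and at 10 TPM or more in each of the other 3 groups, against 2 such genes for Lin28a-null cells and 0 for either ilet7 group. Line differences between Lin28a-null and wild-type cells other than Lin28a therefore enter every Lin28a-loss effect and cannot be told apart from it.

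A gene is called here when its limma adjusted p (Benjamini-Hochberg, all 16085 genes) was under 0.05 and its effect exceeded a 2-fold change. The difference between the effects was called for 1871 genes, 11.6% of those tested: 860 higher (5.35%), with a more positive let-7 effect, and 1011 lower (6.29%), with a more positive Lin28a-loss effect. Let-7 induction called 249 genes (1.55%), of which 215 were higher (1.34%) and 34 lower (0.211%). Lin28a loss called 2097 genes (13.0%), 1380 higher (8.58%) and 717 lower (4.46%). By p alone, 13.0% of genes passed for let-7, 45.9% for Lin28a loss and 28.2% for the difference, and the libraries of a pair did not overlap for 41.0% and 52.3% of genes with let-7 and with Lin28a loss, so separate groups are common in these data. The median absolute effect was 0.186 for let-7 and 0.324 for Lin28a loss. Most of the difference thus came from genes that changed with Lin28a loss: of the 1871, 1373 were called for Lin28a loss and not for let-7, 66 for let-7 and not for Lin28a loss, 42 for both, and 390 for neither.

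To sort genes by response, a gene was placed in "let-7 alone" or "Lin28a loss alone" only when that effect and the difference were called. The difference had to share the sign of a let-7 effect, or oppose the sign of a Lin28a-loss effect, which is subtracted. The other effect had to be not called, with its 95% interval within a 2-fold change. This gave 44 let-7 alone genes (0.274% of those tested; 38 higher and 6 lower) and 1050 Lin28a loss alone genes (6.53%; 608 higher and 442 lower). A further 100 genes (0.622%) were called in the same direction by both, 88 higher and 12 lower, and 12 (0.0746%) in opposite directions. For 1028 genes one effect was called but the conditions on the other effect or on the difference were not met, and the difference was called in 345 of these. Without wild-type replicate 2 the classes held 40, 1214, 119 and 12 genes in the same order. Of the let-7 alone genes, 9 were under 1 TPM in both groups of the Lin28a pair, and of the Lin28a loss alone genes 160 were under 1 TPM in both ilet7 groups, where a response could hardly be seen.

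**Figure D1:**
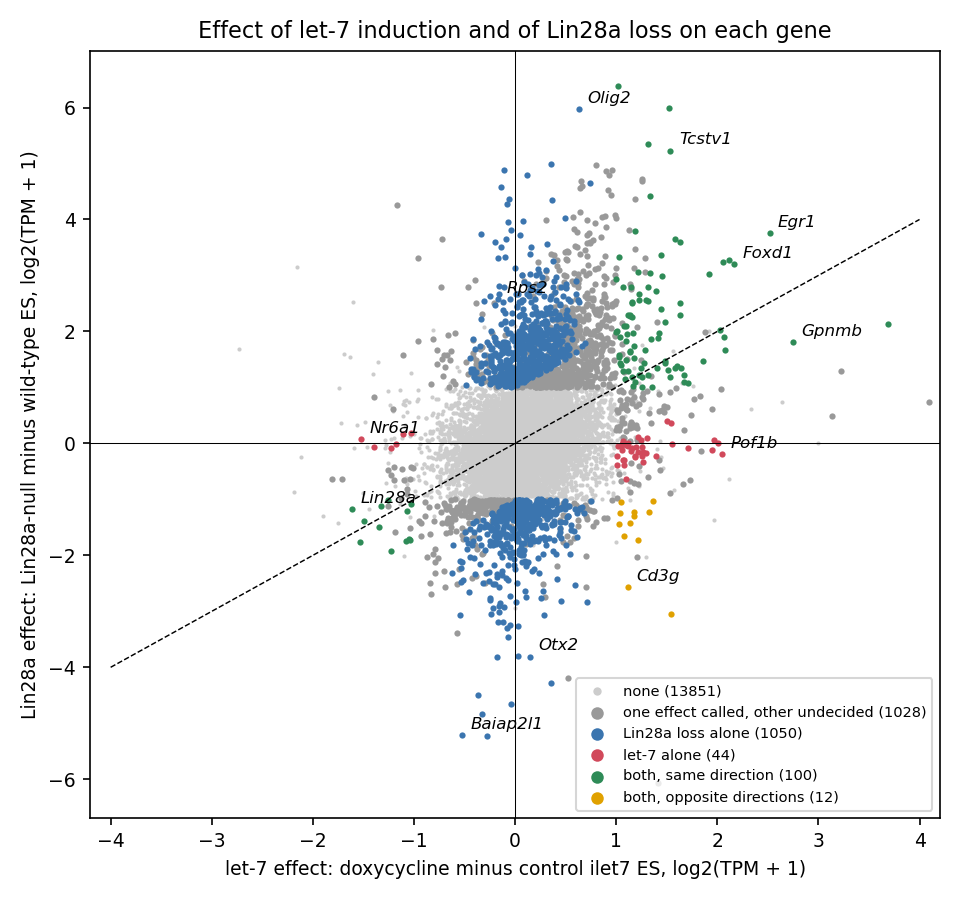
Each point is 1 of 16085 genes, with the let-7 effect on the x axis and the Lin28a-loss effect on the y axis, both in log2(TPM + 1), coloured by response class with the number of genes in the legend. The cloud reaches farther along the Lin28a axis, where 2097 genes were called, than along the let-7 axis, where 249 were.

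The 6 genes lower with let-7 alone included Nr6a1 and Trim6, whose seed matches are printed above, and the other 4 held no match of any of the 3 kinds. Nr6a1 (chr2:38723370-38927688, minus strand), an orphan nuclear receptor also known as germ cell nuclear factor, had 8.23, 5.73 and 6.96 TPM in doxycycline-treated and 20.7, 21.7 and 22.9 TPM in control ilet7 cells. In Lin28a-null cells it had 38.8, 42.1 and 40.5 TPM, and in wild-type cells 49.3, 20.4 and 55.9 TPM. The doxycycline libraries all lay below the controls, while the Lin28a-null libraries lay among the wild-type ones, where replicate 2 was again low. The let-7 effect was −1.52 (SE 0.29, limma adjusted p = 0.0066), the Lin28a-loss effect 0.07 (SE 0.29) and the difference −1.60 (SE 0.40, adjusted p = 0.013). Without wild-type replicate 2 the Lin28a-loss effect was −0.37 (adjusted p = 0.031) and the difference −1.16 (adjusted p = 0.00051). The Lin28a-null libraries then all lay below the wild-type ones, and the gene kept its class.

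Trim6 (chr7:104218793-104235152, plus strand), an E3 ubiquitin ligase of the tripartite motif family, had 84.4, 74.7 and 77.0 TPM in doxycycline-treated and 196.9, 206.5 and 220.4 TPM in control ilet7 cells. It had 224.2, 219.8 and 224.3 TPM in Lin28a-null and 202.3, 263.1 and 240.6 TPM in wild-type cells. Only the doxycycline group stood apart. The let-7 effect on Trim6 was −1.39 (SE 0.09), the Lin28a-loss effect −0.07 (SE 0.09) and the difference −1.32 (SE 0.12, limma adjusted p = 2.9e-05).

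Col18a1, a basement membrane collagen, had 65.8 to 71.7 TPM in doxycycline-treated and 139.8 to 143.3 TPM in control ilet7 cells, against 124.5 to 149.0 TPM in Lin28a-null and 108.5 to 127.1 TPM in wild-type cells (difference −1.21, limma adjusted p = 2.2e-05). Fgf17, a fibroblast growth factor, differed by −1.27 (adjusted p = 0.0019) and Prdx6, an antioxidant peroxiredoxin, by −1.17 (adjusted p = 0.0020). The let-7 effect on Col18a1 was −1.03, and −0.999 without doxycycline replicate 3, just short of a 2-fold change. The difference for Prdx6 was −0.95 without wild-type replicate 2, so that gene rests on this library. The last of the 6 was Ap3b2, a neuronal adaptor subunit with 6.04 to 6.82 TPM in doxycycline-treated and 15.4 to 17.1 TPM in control ilet7 cells, named after its values were seen.

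Among the 38 genes higher with let-7 alone, the 5 with the largest difference rose to several times the control level. Pof1b (chrX:112638431-112698651, minus strand), which encodes an actin-binding protein, had 16.1, 11.96 and 14.2 TPM in doxycycline-treated and 2.44, 3.30 and 2.25 TPM in control ilet7 cells. It had 2.39, 2.83 and 2.24 TPM in Lin28a-null and 1.82, 6.13 and 2.10 TPM in wild-type cells. Only the doxycycline libraries were high, and the difference was 2.23 (SE 0.42, limma adjusted p = 0.0025).

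Sema3b, a secreted semaphorin, had 21.7, 24.5 and 24.8 TPM in doxycycline-treated and 6.16, 6.65 and 6.76 TPM in control ilet7 cells, and 5.42 to 11.4 TPM over both groups of the Lin28a pair (difference 1.798, limma adjusted p = 0.0014). Ceacam10, an immunoglobulin-family adhesion protein, rose to 20.6 to 21.96 TPM with doxycycline against 3.44 to 6.25 TPM in control ilet7 cells (difference 1.90, adjusted p = 0.0013). Atp6v1b1, a subunit of the vacuolar proton pump, had 5.88 to 8.95 TPM in doxycycline-treated and 0.845 to 1.59 TPM in control ilet7 cells (difference 2.07, adjusted p = 0.00052). It was under 0.5 TPM in each library of the Lin28a pair, one of the 9 genes with little transcript to compare there. Tmem266, a voltage-sensor membrane protein, differed by 2.00 (adjusted p = 0.0070).

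Genes called in both comparisons were mostly higher. Of the 249 called for let-7, 40.2% were called in the same direction for Lin28a loss, where 13.0% of all genes were called in either direction. Of the 215 called higher with let-7, 88 were called higher with Lin28a loss, against 8.58% of all genes. Of the 34 called lower, 12 were called lower with Lin28a loss, against 4.46%. Of the 2097 called for Lin28a loss, 4.77% were called in the same direction for let-7, where 1.55% of all genes were called in either direction. The 2 comparisons share no library, but the fibroblast marker sums given above were higher in both, and their part here was not tested. The signs matched for 75.1% of the let-7 calls, for 72.9% of the Lin28a calls and for 60.5% of all tested genes, and the effects correlated with Pearson r = 0.302 (Spearman rho = 0.292) across genes, which are not independent replicates. Of the 88 genes higher in both, the Lin28a-loss effect was the larger in 64, and the difference was called lower in 30 and higher in 0.

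Foxd1 (chr13:98354242-98359305, plus strand), a forkhead transcription factor, had 3.31, 3.81 and 5.54 TPM in doxycycline-treated and 0.164, 0.172 and 0.108 TPM in control ilet7 cells. It had 13.5, 15.0 and 12.1 TPM in Lin28a-null and 0.540, 0.412 and 0.777 TPM in wild-type cells. Neither pair overlapped. The let-7 effect was 2.16 (SE 0.17) and the Lin28a-loss effect 3.21 (SE 0.17), and the difference of −1.04 (limma adjusted p = 0.0088) was no longer called without either of doxycycline replicates 1 and 2, Lin28a-null replicate 2 or wild-type replicate 2, or with a smaller pseudocount, where it was −0.26.

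Egr1, a zinc finger factor induced within minutes of growth factor signalling, had 96.8, 115.3 and 163.6 TPM in doxycycline-treated and 21.9, 18.6 and 21.2 TPM in control ilet7 cells. It had 645.3, 669.0 and 559.0 TPM in Lin28a-null and 28.4, 126.6 and 24.9 TPM in wild-type cells. Both effects were called (2.52 and 3.76, SE 0.47 each). Their difference of −1.24 missed the threshold (limma adjusted p = 0.190), and was −1.98 (adjusted p = 0.00022) without the high wild-type replicate 2.

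Ano1, a calcium-activated chloride channel, rose by 2.12 with let-7 and 3.27 with Lin28a loss (limma adjusted p = 7.9e-05 and 1.2e-07). Spry4, an inhibitor of receptor tyrosine kinase signalling, rose by 1.92 and 3.03 (adjusted p = 7.0e-05 and 8.4e-08).

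Besides Lin28a, 11 genes were lower in both. Gpx6, a glutathione peroxidase, had 4.40, 4.24 and 3.03 TPM in doxycycline-treated and 13.5, 12.01 and 13.6 TPM in control ilet7 cells. It had 0.677, 0.143 and 0.323 TPM in Lin28a-null and 3.09, 5.91 and 2.46 TPM in wild-type cells. The ilet7 line thus held more Gpx6 than the wild-type line at the outset, and the effects were −1.53 and −1.76 (limma adjusted p = 0.0029 and 0.00016).

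Palm3, a membrane-associated paralemmin, had 15.4 to 20.3 TPM in doxycycline-treated against 49.7 to 56.1 TPM in control ilet7 cells, and 19.3 to 23.3 TPM in Lin28a-null against 48.6 to 77.8 TPM in wild-type cells. Its effects were −1.49 and −1.38 (limma adjusted p = 0.00045 and 6.0e-05), with an interval of the difference from −0.63 to 0.41. Rgcc, a regulator of the cell cycle, fell by 1.35 and 1.49 on the log2 scale (adjusted p = 0.0014 and 8.5e-05). Slc11a1, a metal ion transporter of phagosomes, fell by 1.23 and 1.92, but the let-7 call was lost without doxycycline replicate 1 (adjusted p = 0.056) or control replicate 1 (adjusted p = 0.053).

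All 12 genes called in opposite directions were higher with let-7 and lower with Lin28a loss. Lama3, a laminin chain of epithelial basement membranes, had 24.8, 28.4 and 29.3 TPM in doxycycline-treated and 10.0, 10.6 and 13.3 TPM in control ilet7 cells. It had 7.73, 7.22 and 7.61 TPM in Lin28a-null and 35.8, 27.2 and 20.6 TPM in wild-type cells. Both pairs were separate and in opposite order, with effects of 1.22 and −1.73 (SE 0.17 each) and a difference of 2.95 (SE 0.24, limma adjusted p = 1.2e-05).

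Nefm, the medium neurofilament chain of neurons, had 10.46, 11.4 and 13.5 TPM in doxycycline-treated and 5.33, 4.49 and 4.57 TPM in control ilet7 cells, against 12.7 to 15.9 TPM in Lin28a-null and 31.7 to 45.5 TPM in wild-type cells (difference 2.56, limma adjusted p = 1.3e-05). Cd3g, a subunit of the T cell receptor complex, had 24.1 to 26.1 TPM in doxycycline-treated and 9.98 to 12.6 TPM in control ilet7 cells, against 0.443 to 2.29 TPM in Lin28a-null and 9.71 to 15.4 TPM in wild-type cells (difference 3.69, adjusted p = 4.0e-05). The let-7 effect on Cd3g (1.12, adjusted p = 0.017) missed the threshold without doxycycline replicate 1 or 3 or control replicate 2 or 3, at adjusted p of 0.054 to 0.058. Only 6 genes were opposite without doxycycline replicate 1 and 7 without control replicate 2. Mir23b and Pianp, whose difference was 2.48 (adjusted p = 0.00013), were the other 2 of the 5 largest named differences.

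**Figure D2:**
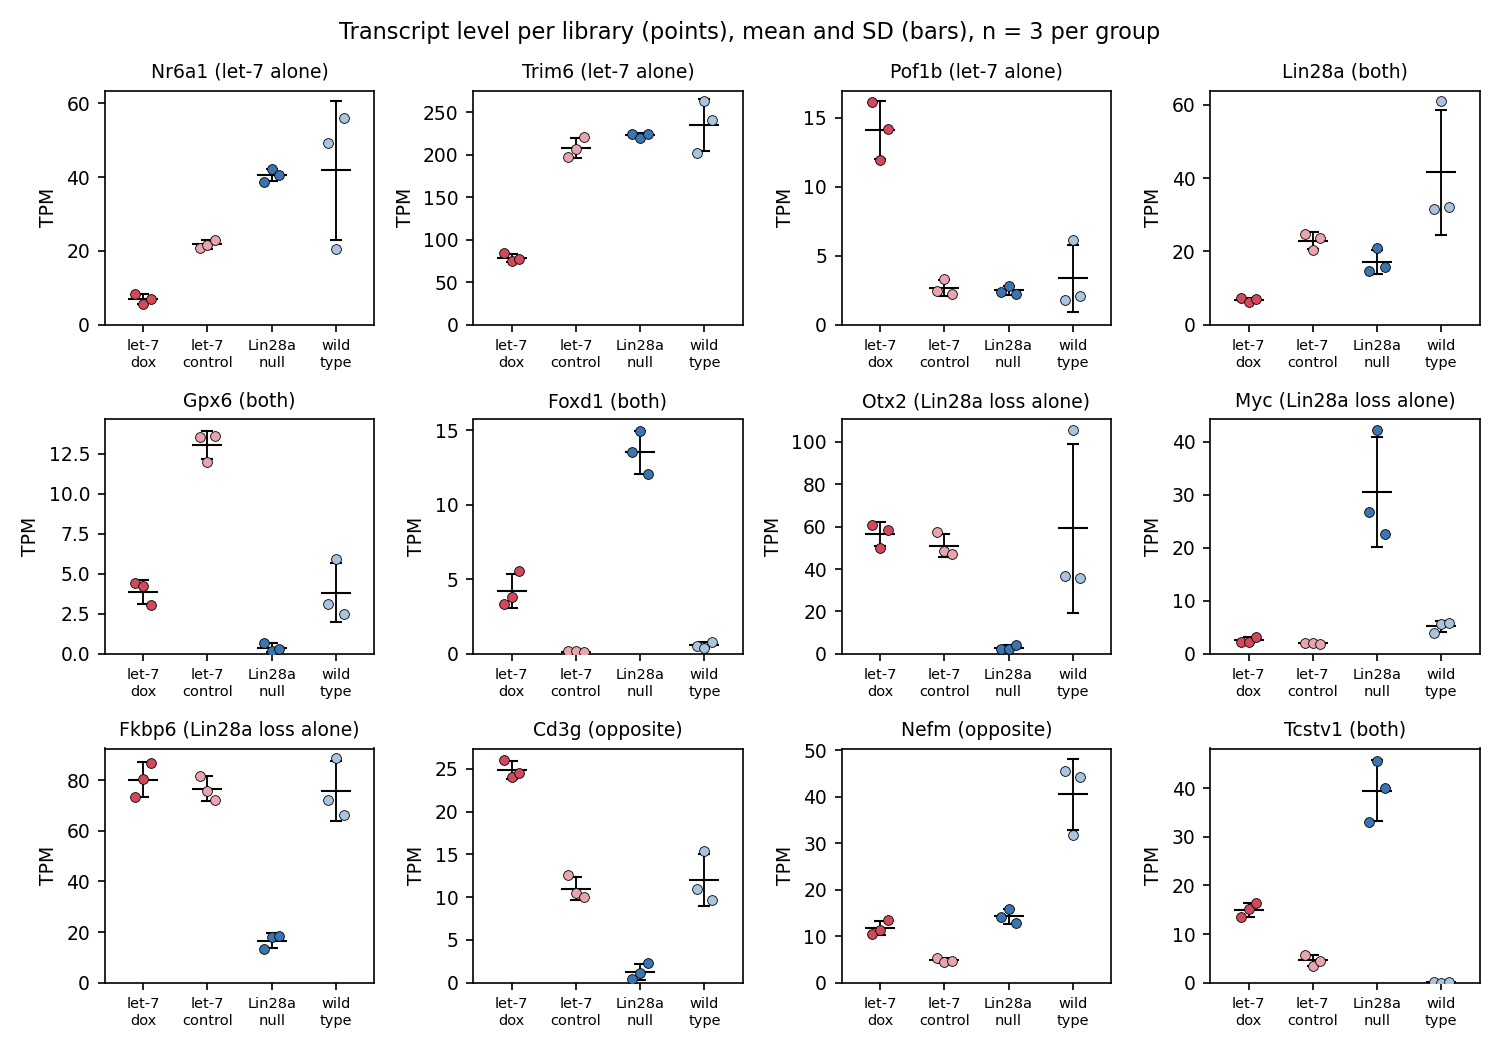
TPM of 12 genes in each library (points), with group mean and SD (bars), n = 3 a group, ordered doxycycline-treated ilet7, control ilet7, Lin28a-null and wild type, with each gene's response class in its title. Nr6a1, Trim6 and Pof1b were called only in the ilet7 pair, Otx2, Myc and Fkbp6 only in the Lin28a pair, and the genes marked both or opposite in each pair.

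The Lin28a loss alone genes carried the largest differences. Olig2, a basic helix-loop-helix factor of the oligodendrocyte and motor neuron lineages, had 28.7, 28.6 and 26.3 TPM in doxycycline-treated and 15.3, 18.1 and 19.95 TPM in control ilet7 cells. It had 63.7, 74.2 and 70.9 TPM in Lin28a-null but 0.160, 0.215 and 0 TPM in wild-type cells. On the log2(TPM + 1) scale the ilet7 controls lay nearer the Lin28a-null than the wild-type level, so the Lin28a-loss effect of 5.97 (SE 0.12, limma adjusted p = 4.1e-11) rests on near absence in wild-type cells. Olig1, its neighbour on chromosome 16, followed the same order, with a difference of −3.92 (adjusted p = 4.0e-08). For 18.2% of the 1050 genes the control ilet7 mean lay nearer the Lin28a-null than the wild-type mean on that scale, against 29.9% of all tested genes.

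Myc, the growth-promoting transcription factor, had 26.8, 42.2 and 22.5 TPM in Lin28a-null and 4.001, 5.61 and 5.87 TPM in wild-type cells, with 2.25 to 3.20 TPM in doxycycline-treated and 1.79 to 2.13 TPM in control ilet7 cells. Its Lin28a-loss effect was 2.32 (SE 0.22) and the difference −2.08 (SE 0.31, limma adjusted p = 0.00060). Here the ilet7 line resembled wild-type cells. Myo1f, an unconventional myosin of immune cells, had 29.8 to 32.0 TPM in Lin28a-null and 0.153 to 0.611 TPM in wild-type cells (difference −4.73, adjusted p = 4.7e-08).

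On the lower side, Baiap2l1, which links membrane curvature to actin, had 2.92, 2.93 and 2.00 TPM in Lin28a-null and 135.4, 113.6 and 149.1 TPM in wild-type cells, but also only 4.42 to 6.05 TPM in doxycycline-treated and 7.08 to 9.09 TPM in control ilet7 cells. Wild-type cells were the exception, and the difference was 4.69 (SE 0.22, limma adjusted p = 1.3e-07). Otx2 (chr14:48657677-48673819, minus strand), a homeodomain factor of the primed epiblast and forebrain, had 2.23, 2.18 and 4.23 TPM in Lin28a-null and 36.9, 105.4 and 35.6 TPM in wild-type cells, with 50.1 to 60.7 TPM in doxycycline-treated and 47.1 to 57.3 TPM in control ilet7 cells. Its difference was 3.95 (SE 0.49, adjusted p = 0.00020), and 3.45 (adjusted p = 1.3e-05) without wild-type replicate 2. Sox21, an SRY-box repressor of pluripotency genes, differed by 3.55 (adjusted p = 5.1e-08).

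Rpl21, a large-subunit ribosomal protein gene with many near-identical copies, had 208.8 to 216.8 TPM in Lin28a-null and 13.7 to 21.6 TPM in wild-type cells, and 160.4 to 199.6 TPM in doxycycline-treated and 193.3 to 213.6 TPM in control ilet7 cells. Rps2 had 2002 to 2092 TPM in Lin28a-null and 327.8 to 359.5 TPM in wild-type cells. Only wild-type cells were low for both. Reads that fit several copies were dropped by the authors, so levels of such genes are uncertain. Most of the 87 cytosolic ribosomal protein genes did not rise, with a median Lin28a-loss effect of −0.17. At a limma adjusted p under 0.05, 43 of them were lower and 10 higher with Lin28a loss, against 22.5% and 23.4% of all genes.

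Lists of genes grouped by pathway, chosen with earlier results of these data known, describe the members of each response. Their counts are to be read beside the shares called among all genes. Among 53 tested let-7 target genes the median let-7 effect was −0.09 (0.06 over all genes), the median Lin28a-loss effect 0.04 (0.01) and the median difference −0.15 (0.05). The difference was called lower in 6 (Myc, Ccnd2, Nr6a1, Cdk6, Hmga2 and Tgfbr1) and higher in 0, against 6.29% and 5.35% of all genes. The let-7 effect itself was called lower in 3 (Lin28a, Nr6a1 and Arid3b) and higher in 0. At an adjusted p under 0.05 with no fold limit, 13 of the 53 were lower and 2 higher with let-7, against 3.54% and 9.42% of all genes, while 14 were lower and 17 higher with Lin28a loss, against 22.5% and 23.4%. The median let-7 effect stayed below 0 in each of the alternative settings (−0.15 to −0.02), and the median Lin28a-loss effect took both signs.

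The named members of that list differed in which perturbation moved them. Arid3b, an AT-rich DNA-binding factor, had 16.7, 16.4 and 17.1 TPM in doxycycline-treated and 42.7, 41.1 and 40.6 TPM in control ilet7 cells (let-7 effect −1.26, limma adjusted p = 5.8e-05), and fell by less with Lin28a loss (−0.48, adjusted p = 0.0014). Trim71, the vertebrate relative of worm lin-41, had 28.2, 25.5 and 30.4 TPM in doxycycline-treated and 52.4, 51.1 and 51.6 TPM in control ilet7 cells, against 61.2 to 69.0 TPM in Lin28a-null and 59.3 to 66.1 TPM in wild-type cells. The let-7 effect on Trim71 passed the test at −0.86 (adjusted p = 0.00013) and so did the difference at −0.91 (adjusted p = 0.00015), both short of a 2-fold change, and the Lin28a-loss effect was 0.04 (adjusted p = 0.677). Igf2bp1, an mRNA-binding protein of fetal tissue, fell by 0.54 on the log2 scale with let-7 (adjusted p = 0.0028) and rose by 0.36 with Lin28a loss (adjusted p = 0.0055).

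For other classic targets the difference came from the Lin28a side. Fibroblast marker sums also differed in the Lin28a pair, at 2170 to 3065 TPM in Lin28a-null and 463.3 to 1373 TPM in wild-type cells. Their part in the rises below was not tested. Hmga2, a chromatin protein of fetal growth, had 19.9, 21.4 and 21.7 TPM in doxycycline-treated and 21.2, 24.9 and 23.7 TPM in control ilet7 cells, groups that overlapped. It had 41.0, 35.9 and 29.6 TPM in Lin28a-null and 15.2, 21.5 and 16.4 TPM in wild-type cells, which did not. The let-7 effect was −0.14 (SE 0.14, limma adjusted p = 0.554) and the Lin28a-loss effect 0.97 (SE 0.14, adjusted p = 0.00020). Ccnd2, a G1 cyclin, had 67.5 to 103.7 TPM in Lin28a-null and 9.58 to 20.5 TPM in wild-type cells, and 6.08 to 7.53 TPM in doxycycline-treated and 2.60 to 3.71 TPM in control ilet7 cells (difference −1.62, adjusted p = 0.0044). Cdk6, a G1 kinase, rose by 1.00 with Lin28a loss (adjusted p = 0.00027) and changed by −0.38 with let-7 (adjusted p = 0.120). Lin28b, the paralogue of Lin28a, rose by 0.84 with Lin28a loss (adjusted p = 0.00067), and its let-7 effect was 0.03 (adjusted p = 0.923).

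Genes with 2 or more 8mers had a lower median let-7 effect than genes with no match. Over the 26 tested genes with 2 or more 8mers, the median let-7 effect was −0.21, against 0.07 for the 10942 genes with no match. The median Lin28a-loss effect was −0.11, against −0.01, and the median difference −0.28, against 0.07. At an adjusted p under 0.05, 9 of the 26 were lower with let-7 (34.6%, against 3.85% of genes with no match), and 7 were lower with Lin28a loss (26.9%, against 25.1%). Igdcc3, a cell-surface protein of the immunoglobulin superfamily with 2 8mers, fell the most with let-7 (−1.71, limma adjusted p = 0.00057), ahead of Lin28a, Nr6a1, Trim6 and Trim71. Mcf2l, a guanine nucleotide exchange factor with 7 8mers, did not follow: its let-7 effect was 0.20 (adjusted p = 0.354) and its Lin28a-loss effect −1.15 (adjusted p = 3.7e-05). Across the alternative settings the median let-7 effect of the 26 ran from −0.34 to −0.14.

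Fewer 8mers went with smaller shifts. For the 1671 genes with 7mers only the median let-7 effect was 0.07, as for genes with no match. By test, 4.69% of genes with a single 7mer were lower, and 3.04% of those with more 7mers, against 3.85% with no match. For the 477 genes with at least one 8mer the median let-7 effect was 0.02, and 9.22% were lower by test, against 24.5% with Lin28a loss. Since long UTRs hold more matches, shares were also taken by length. Among the shortest UTRs (cut at 652 bases) 27.0% of genes with an 8mer and 5.48% of genes with no match were lower with let-7. In the middle range the shares were 12.8% and 3.61%, and among the longest (cut at 1746 bases) 5.71% and 1.86%. For genes with 7mers only the shares were 14.9%, 4.79% and 2.86%, from the shortest to the longest range. Seen from the calls, 5 of the 28 genes called lower with let-7 that have a 3′ UTR held an 8mer (17.9%), and 1 of the 166 called higher (0.602%), against 3.64% of all. Among Lin28a loss alone genes an 8mer was found in 3.12% of the lower and 2.49% of the higher ones.

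**Figure D3:**
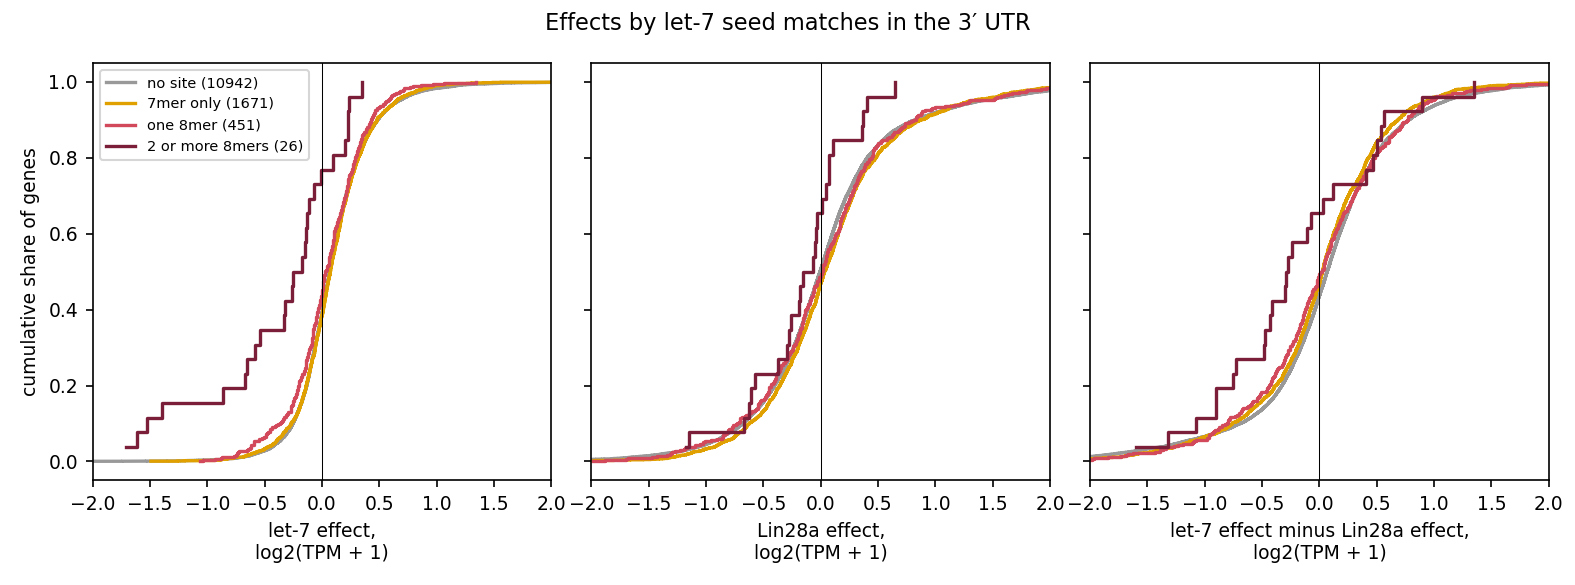
Cumulative share of genes (y axis) by effect in log2(TPM + 1) (x axis), one panel for each effect and one for the difference, with genes grouped by let-7 seed matches in the 3′ UTR. In the let-7 panel the curve of the 26 genes with 2 or more 8mers, with a median of −0.21, lies left of the 10942 genes with no match, with a median of 0.07.

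Genes of the 2C program are active in the 2-cell embryo and in a rare state of ES cells. Of 29 tested, 4 were called higher with let-7 and 25 with Lin28a loss, against 1.34% and 8.58% of all genes, with medians of 0.68 and 2.50. The difference was called lower in 19, against 6.29% of all genes. Without wild-type replicate 2 these counts were 26 for Lin28a loss and 20 for the difference. Zscan4c, a zinc finger gene of that state, had 24.5, 25.8 and 31.1 TPM in doxycycline-treated and 17.8, 15.6 and 17.3 TPM in control ilet7 cells. It had 125.6, 138.9 and 125.4 TPM in Lin28a-null and 9.03, 0.344 and 11.5 TPM in wild-type cells. The let-7 effect was 0.65 (SE 0.62, limma adjusted p = 0.538), with ilet7 groups that did not overlap. Its SE uses a spread estimated over all groups, so it includes the low wild-type replicate 2. Across the alternative settings the let-7 effect ran from 0.55 to 0.71, with adjusted p from 0.0028 to 0.707. The difference was −3.92 (adjusted p = 0.0069), and −2.90 (adjusted p = 1.6e-06) without wild-type replicate 2. Tcstv1, another 2C gene, was called in both, at 1.54 with let-7 (adjusted p = 0.00041) and 5.23 with Lin28a loss (adjusted p = 2.2e-09). These families hold near-identical copies, so the level of a single member is uncertain.

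Immediate early genes are the first to be transcribed after growth factor signalling, and ERK feedback genes damp that signal. Of 30 immediate early genes, 3 were called higher with let-7 (median 0.43) and 18 with Lin28a loss (median 1.36), against 1.34% and 8.58% of all genes. The difference was called lower in 14 (16 without wild-type replicate 2), against 6.29% of all genes, and higher in 1, Ctgf, a matricellular growth factor of YAP signalling (1.17, limma adjusted p = 0.00026). Fos, a subunit of AP-1, had 207.4, 243.7 and 311.9 TPM in doxycycline-treated and 124.4, 92.5 and 106.0 TPM in control ilet7 cells, and 363.9, 307.2 and 293.4 TPM in Lin28a-null and 40.4, 87.3 and 42.8 TPM in wild-type cells. Both pairs were separate, with effects of 1.22 and 2.56 and a difference of −1.34 (adjusted p = 0.017). Of 18 ERK feedback genes, 3 were called higher with let-7 and 10 with Lin28a loss, and the difference was called lower in 7, beside the same shares of all genes. Values of Junb and Spry1 switched between about 0 and a high level among replicates of one group, which can be a failed estimate, and are not read.

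MHC class I and interferon response genes, which present antigen and restrict viruses, were called higher with let-7 in 9 of 61 and with Lin28a loss in 34 of 61, with medians of 0.58 and 1.08. Over all genes 1.34% were called higher with let-7 and 8.58% with Lin28a loss, and the difference was called lower in 6.29%. In this list the difference was called lower in 20 and higher in 2. Without wild-type replicate 2, 42 were called higher with Lin28a loss and the difference was lower in 26. Zbp1, a sensor of Z-form nucleic acid, rose by 2.07 with let-7 and 1.66 with Lin28a loss (limma adjusted p = 0.00072 and 0.00028). B2m, the light chain of MHC class I, had 977.4 to 1288 TPM in Lin28a-null and 214.0 to 371.2 TPM in wild-type cells, and 214.0 to 227.2 TPM in doxycycline-treated and 160.8 to 181.0 TPM in control ilet7 cells (difference −1.62, adjusted p = 0.00052). Of the fibroblast and feeder genes, 2 of 48 were called higher with let-7 and 41 of 48 with Lin28a loss, with medians of 0.42 and 1.85, and the difference was called lower in 31, or 39 without wild-type replicate 2, to be read beside the same shares of all genes. Col1a1, the chain of type I collagen, had 643.6 to 891.7 TPM in Lin28a-null and 130.5 to 388.0 TPM in wild-type cells. The feeder marker sums given above moved with these lists and with the immediate early genes, and their part in those results was not tested. Without wild-type replicate 2 the median Lin28a-loss effect of the fibroblast and feeder genes was 2.23, against 1.85 with it. The counts without that library are to be read beside this wider gap.

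Most of the other groups below had a larger median effect with Lin28a loss than with let-7, but the pluripotency genes did not. Of 39 integrated stress response genes, the program of ATF4, the difference was called higher in 8 and lower in 0 (5.35% and 6.29% of all genes), with a median Lin28a-loss effect of −0.54 and a median let-7 effect of −0.03. Chac1, a glutathione-degrading enzyme, had 11.0 to 16.7 TPM in Lin28a-null and 84.6 to 93.3 TPM in wild-type cells, and 26.9 to 33.0 TPM in doxycycline-treated and 16.7 to 20.8 TPM in control ilet7 cells (difference 3.13, limma adjusted p = 2.3e-06). Trib3, a pseudokinase of that program, differed by 2.15 (adjusted p = 3.2e-05). Of 34 germline genes, 3 were called higher and 8 lower with Lin28a loss, against 8.58% and 4.46% of all genes. The difference was called higher in 5 and lower in 3 of them, against 5.35% and 6.29% of all genes. The meiotic genes Fkbp6 and Smc1b differed by 2.19 and 2.25 (adjusted p = 1.7e-05 and 2.6e-06), while Stra8, which acts at meiotic entry, differed by −1.76. Fkbp6 had 13.3 to 18.4 TPM in Lin28a-null and 66.1 to 88.7 TPM in wild-type cells. Replication-dependent histone genes, whose mRNAs lack poly-A tails and have near-identical copies, had a median of 1.23 with Lin28a loss and −0.34 with let-7, and the difference was called lower in 15 of 32, against 6.29% of all genes. Of 84 nucleolar and ribosome biogenesis genes, the difference was called in 0. At an adjusted p under 0.05 with no fold limit it was lower in 30 and higher in 3, against 12.1% and 16.2% of all genes, with a median of −0.20. Of 38 general pluripotency genes, 1 was called higher with let-7 and 0 lower, against 1.34% and 0.211% of all genes. With Lin28a loss 2 were called higher and 4 lower, against 8.58% and 4.46%. The medians were 0.21 with let-7 and 0.03 with Lin28a loss. By p alone, 12 were higher and 4 lower with let-7, against 9.42% and 3.54% of all genes. With Lin28a loss 15 were higher and 9 lower by p, against 23.4% and 22.5%.

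**Figure D4:**
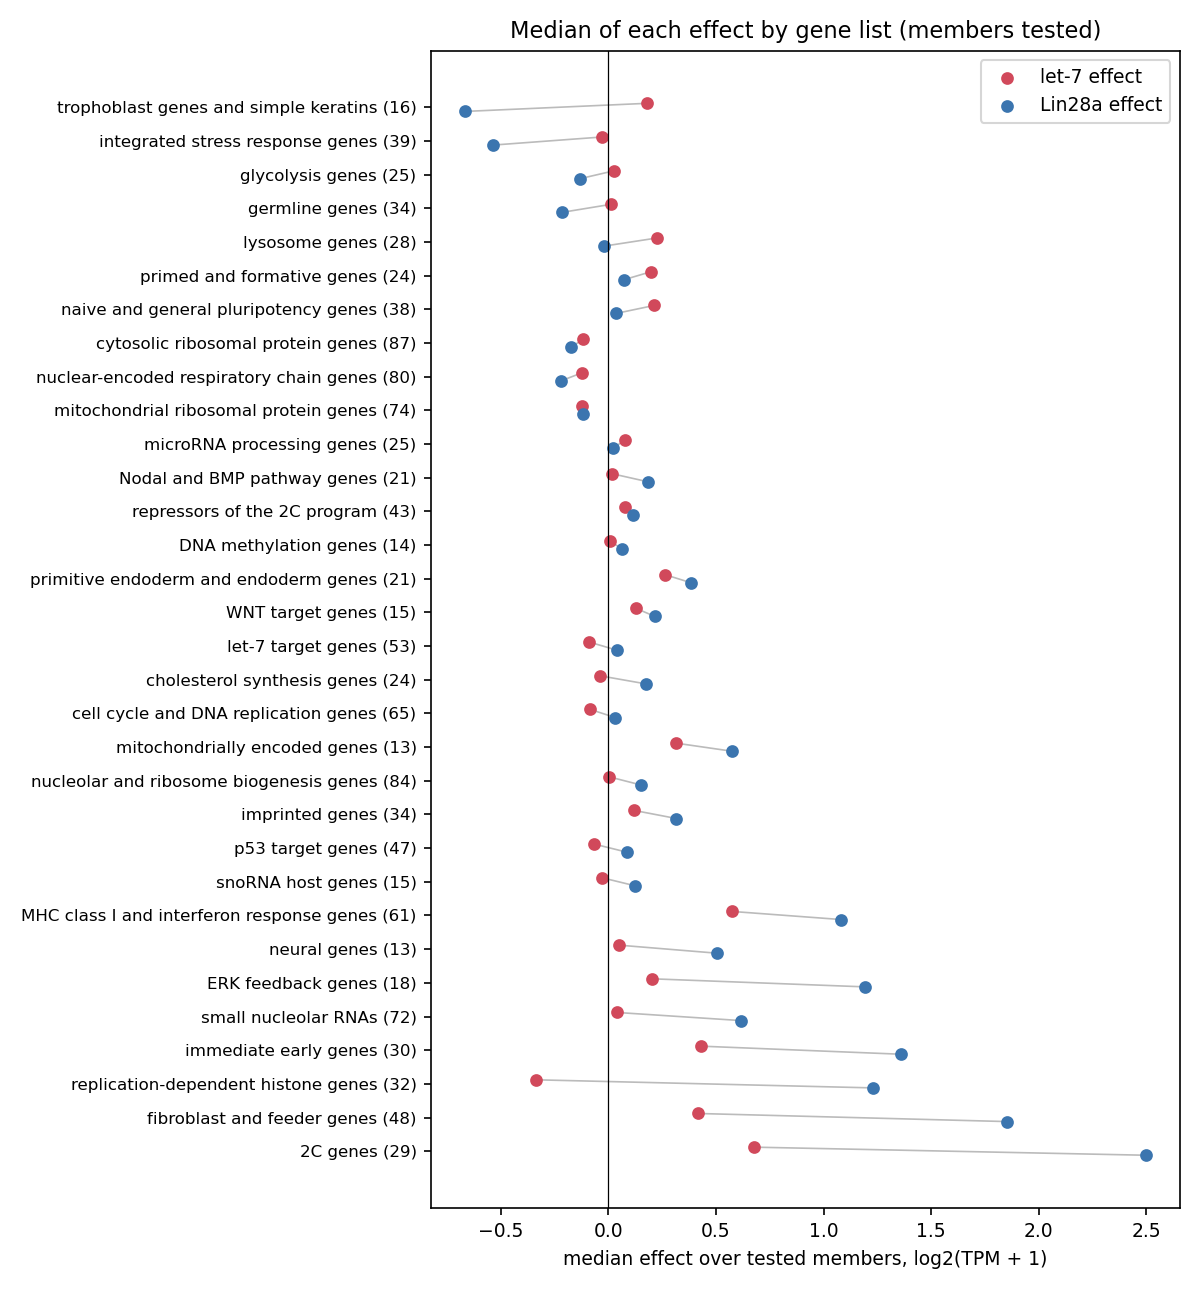
Median let-7 effect (red) and median Lin28a-loss effect (blue), in log2(TPM + 1), over the tested members of each gene list, with the number tested in brackets. The 2C genes, at 0.68 and 2.50, and the fibroblast and feeder genes, at 0.42 and 1.85, lie to the right in both, with the Lin28a-loss median farther out.

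A separate set of libraries shows whether the shared genes also changed in another Lin28 loss. Induced pluripotent stem (iPS) cells lacking both Lin28a and Lin28b and wild-type iPS cells, 3 libraries each in a table of their own, entered none of the fits above. Of the genes higher in both ES comparisons, 77 could be tested and 42 were called higher in the double knockout (54.5%), against 4.25% of all 14908 tested. Of those lower in both, 5 of 9 were called lower (55.6%, against 2.33%): Lin28a, Palm3, Pctp, Gpx6 and Fam159a. Lin28a is itself knocked out in these cells, so its call is not a separate observation. Genes higher with Lin28a loss alone were called higher in 28.3%, and those lower with Lin28a loss alone were called lower in 79 of 413.

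The let-7 alone genes were called in the double knockout in both directions. Of the 25 higher with let-7 alone that could be tested, 3 were called higher and 5 lower, against 4.25% and 2.33% of all genes tested, and of the 5 lower with let-7 alone 0 were called by limma, although Nr6a1 (−0.77, adjusted p = 0.047) and Col18a1 (−0.52, adjusted p = 0.017) passed the p threshold without a 2-fold change. Nr6a1 had 15.1, 20.8 and 18.99 TPM in double-knockout and 41.7, 31.1 and 24.4 TPM in wild-type iPS cells. Trim6 had 158.8 to 175.9 TPM in double-knockout and 171.5 to 252.6 TPM in wild-type iPS cells, which overlapped. Of the 11 genes with opposite ES responses, 5 were called lower and 0 higher. Cd3g was listed at 0 TPM in each double-knockout library, against 39.1, 30.0 and 31.3 TPM in wild-type iPS cells. Nefm had 12.4 to 15.4 TPM in double-knockout and 41.9 to 59.6 TPM in wild-type iPS cells (adjusted p = 0.00060). Summed over the fibroblast markers, double-knockout iPS cells had 2597 to 3746 TPM and wild-type iPS cells 1537 to 2889 TPM, and the part of these cells in the shared calls was not tested.

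**Figure D5:**
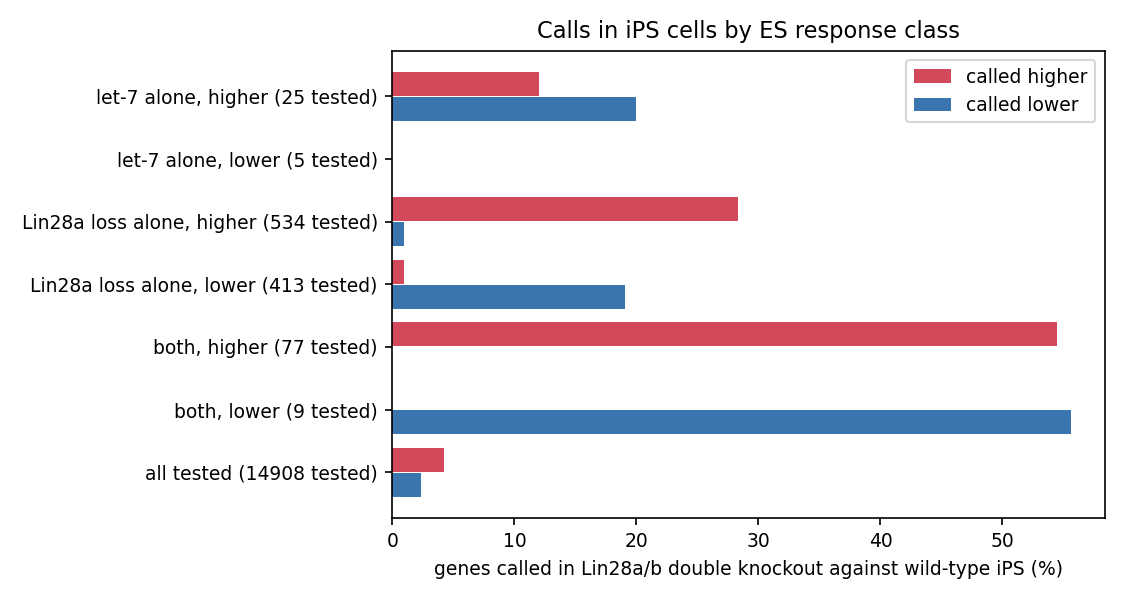
Share of genes (x axis, %) called higher (red) and lower (blue) in double-knockout against wild-type iPS cells, for each ES response class and for all tested genes, with the number tested beside each name. Genes higher in both ES comparisons reach 54.5% higher, against 4.25% of all tested genes.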

How the data were processed

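RNA-seq was done on poly-A-selected RNA. The authors called bases with CASAVA 1.8, trimmed with Trimmomatic, aligned to mm10 with HISAT2, removed duplicates with Picard, kept uniquely mapped reads and computed TPM with StringTie over GENCODE genes. The deposited unit is TPM per gene. Counting is not stated to use strand, so overlapping and antisense genes are uncertain. The embryo table was not used. Effects were fitted here on log2(TPM + 1) with limma 3.58.1 (trend, R 4.3.3) in one model of 4 groups, 12 libraries, with a minimum mean of 1 TPM, and Benjamini-Hochberg adjustment over all genes. iPS libraries were fitted alone. The 2 effects share no libraries but share one estimate of the spread. The fit was tested on simulated data.

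Named genes were 19 fixed ones, up to 5 per class and direction by size of the difference (of the smaller effect where both were called) with libraries that do not overlap, and up to 4 per list; 1 gene that the rule names is not reported here. Ap3b2, B2m, Col1a1, Ddx3y, Igdcc3, Mcf2l, Pctp, Fam159a, Fos, Zbp1, Arid3b, Ctgf, Junb and Tgfbr1 fall outside this rule and were picked with their values in view. The members and lists were chosen with earlier results of these data known. Alternatives covered the pseudocount, filters, scaling, variance trend, all 15 ES libraries, a replicate block and each library left out.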

Additional observations from a re-analysis of the deposited data

How the results depend on the processing

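With a mean of at least 5 TPM the difference was called in 1176 genes (557 of them lower), let-7 induction in 144 and Lin28a loss in 1249, with 22 let-7 alone and 641 Lin28a loss alone genes; fewer genes were tested there. A pseudocount of 0.1 gave 169 genes called in the same direction by both and 19 in opposite directions. The cause of these changes was not tested.

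Leaving out each library in turn gave 1669 to 1944 genes for the difference (773 to 947 higher and 825 to 1171 lower), 186 to 277 for let-7 and 1964 to 2179 for Lin28a loss. It gave 37 to 46 let-7 alone genes, 908 to 1214 Lin28a loss alone genes, 72 to 119 called in the same direction and 6 to 14 in opposite directions. Without wild-type replicate 2, 30 of the 44 let-7 alone genes kept that class.

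The same replicate numbers did not pair the libraries, with correlations of deviations from −0.120 to 0.124. With a replicate block 1837 genes were called in the difference (853 higher and 984 lower), 245 for let-7, 2098 for Lin28a loss, 46 as let-7 alone, 1015 as Lin28a loss alone, 95 in the same and 12 in opposite directions. An alternative chosen after seeing the data, at least 1 TPM in a group of each comparison, gave 1667, 35 let-7 alone and 889 Lin28a loss alone genes. Of 229 called effects of named genes, 194 kept their call in each alternative in which the gene was tested and 0 reversed. Some of these genes were not tested in all 22. Depth is unknown, and transcripts near 1 TPM limit what either effect can show.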
